A study of Mus musculus with 8 samples.

Results

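A set of 10 genes that respond to or limit ERK signalling, Dusp4, Dusp5, Dusp6, Spry2, Spry4, Spred1, Spred2, Etv4, Etv5 and Phlda1, was followed in RNA-seq of JUN TetON mouse ESCs treated with 2 bromodomain inhibitors. They were chosen by name because they belong to 1 pathway, with earlier results of these data known. All 10 were found among the 50600 gene names of the deposited table. The cells were OG2 ESCs of a mixed 129SVJ, C57B6 and CBA background with the genotype c-Jun_TetOn_mESC, in which doxycycline turns on a JUN transgene. The 4 groups of 2 libraries each received doxycycline at 2 μg/ml plus DMSO (the solvent), PFI-3 (an inhibitor of the bromodomains of SMARCA4, SMARCA2 and PBRM1), BI-9564 (an inhibitor of the bromodomains of BRD9 and BRD7) or both compounds (P+B), and the labels give 6 h of treatment for doxycycline and compound alike. The study describes a longer JUN induction than compound exposure for this experiment, so JUN may have been on before the compounds were added. The comparisons ask what each compound, and their combination, does to these transcripts while JUN is induced. No library without doxycycline was part of the table, so the action of JUN itself was not measured.

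In ESCs, FGF4 made by the cells signals through FGF receptors, RAS, RAF and MEK to ERK, and active ERK induces genes whose products hold the same cascade back. DUSP phosphatases remove phosphate from ERK, and Sprouty and SPRED proteins limit signalling at the level of RAS and RAF. The ETS factors ETV4 and ETV5 are transcriptional readouts of FGF-ERK signalling. All 4 groups were grown feeder free with serum, LIF, the GSK3 inhibitor Chir99021 and the MEK inhibitor PD0325901, which acts directly above ERK. Every value given here is therefore a level in cells that were kept on a MEK inhibitor.

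The starts of 3 of the genes are shown because Dusp5 had the largest fall among them with P+B, whereas Dusp6 and Spry2 had the highest positive log2 fold changes. They come from the 250 bases before the RefSeq start on GRCm38.p6, ended where the GENCODE gene begins if that lay further upstream, at chr19:53528895-53529108 (plus strand) for Dusp5, chr10:99262981-99263230 (plus strand) for Dusp6 and chr14:105896820-105897069 (minus strand) for Spry2, each written 5′ to 3′ along its gene. Capitals mark matches to the CArG box, the motif known to be bound by serum response factor.
Dusp5: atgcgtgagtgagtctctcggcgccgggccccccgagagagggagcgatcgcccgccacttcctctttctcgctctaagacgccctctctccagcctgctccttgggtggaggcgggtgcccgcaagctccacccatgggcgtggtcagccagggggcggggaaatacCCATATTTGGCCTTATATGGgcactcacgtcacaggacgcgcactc
Dusp6: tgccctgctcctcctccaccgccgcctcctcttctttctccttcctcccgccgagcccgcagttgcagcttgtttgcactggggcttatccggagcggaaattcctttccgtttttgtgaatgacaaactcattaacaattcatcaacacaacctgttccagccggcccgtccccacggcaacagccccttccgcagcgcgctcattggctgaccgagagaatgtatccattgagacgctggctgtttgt
Spry2: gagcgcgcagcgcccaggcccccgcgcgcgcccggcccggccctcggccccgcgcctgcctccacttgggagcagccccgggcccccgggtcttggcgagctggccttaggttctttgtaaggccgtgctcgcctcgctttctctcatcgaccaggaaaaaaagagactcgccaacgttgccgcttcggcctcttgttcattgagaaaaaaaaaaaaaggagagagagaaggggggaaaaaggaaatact
RefSeq windows were matched for 6 of the 10 genes and searched over their whole 250 bases, 7 windows in all, because Etv5 had more than 1. Dusp4, Spry4, Etv4 and Phlda1 were not matched. On either strand, the AP-1 motif TGANTCA, the CRE motif TGACGTCA and the ETS motif CCGGAAG were each in 0 of the 7 windows, whereas 6.75%, 1.55% and 6.91% of 32851 promoters held them. The Dusp5 window held 2 CArG matches, which begin 82 and 72 bases before the RefSeq start, and the other windows held 0. A CArG match was in 1.47% of the promoters, and 2 or more were in 6 of them (0.0183%). This motif was looked for after the Dusp5 sequence had been seen, and a match describes the letters and not a bound site.

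The values are TPM, a level scaled to transcript length and library total, which the authors made whole. Fold changes were computed on log2(TPM + 1) with limma over all 8 libraries, for the 10222 genes with a mean TPM of at least 5. A gene was called when its Benjamini-Hochberg adjusted p was under 0.05 and its fold change at least 1.5. Of the 10 genes, 9 passed the filter and Spry4 did not. The libraries summed to between 991574 and 991897, and TPM keeps no depth. The labels do not say whether the replicates were separate cultures, so the p-values may measure only technical spread, and for 1 gene the smallest exact two-sided permutation p with 2 against 2 libraries is 0.333. The sum of 10 pluripotency markers, most of it Pou5f1 (1104 to 1333), was between 1502 and 2231 in every library. Under P+B against DMSO limma called 0 of the 10, beside 4.0% of all tested genes. At an unadjusted p under 0.05 there were 3, beside 22.6%. With a replicate block (the replicate number as a term in the fit), Klf2 (1.03, adjusted p = 0.00284) and Esrrb (0.74, adjusted p = 0.00486) were called higher. In that fit 2.93% of all tested genes were called higher. Under PFI-3 all 10 had higher values than under DMSO (median 0.44), beside 5531 of the 10222 tested genes. Limma called 0 of the 10 and 0 of all tested genes in either fit. At an unadjusted p under 0.05 there were 3, beside 6.79% of all tested genes, and the part of these markers in the results was not tested. No marker of 8 for fibroblasts was above 5, with 5 of the 8 at 0 throughout. None of 6 for primitive endoderm was above 5 either, whereas 1 of 4 for trophoblast stayed at or below 5. From DMSO to P+B, Cdx2 went from 1 and 0 to 5 and 10 and Hand1 from 4 and 6 to 1 and 1. Both were under the filter, and Eomes, the 1 trophoblast marker tested, was not called. Jun, which the table does not split into transgene and endogenous transcripts, was at 1970 and 2877 under DMSO, 1570 and 2227 under PFI-3, 2071 and 3011 under BI-9564 and 1569 and 2159 under P+B. The Jun ranges overlapped between all groups (P+B against DMSO −0.37, limma adjusted p = 0.437, or 0.00156 with the replicate number as a block, under the fold threshold), and the part of Jun in the results was not tested.

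In the DMSO libraries the 10 genes spanned a wide range of TPM. Phlda1, a pleckstrin homology-like protein induced by growth factors, was the most abundant at 282 and 269, followed by Etv5 at 146 and 109. Etv4 (79 and 99) and Dusp5 (77 and 86) came next with overlapping levels. Spred2 lay at 29 and 38, above Spry2 (19 and 17) and Spred1 (17 and 18), whose levels overlapped. Dusp4 stood at 10 in both libraries. The lowest levels were those of Dusp6 (5 and 3) and Spry4 (4 and 2), which overlapped each other. For Dusp6 and Spry4 a step of 1 TPM is a large part of the level, since the deposited values are whole numbers.

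**Figure D1:**
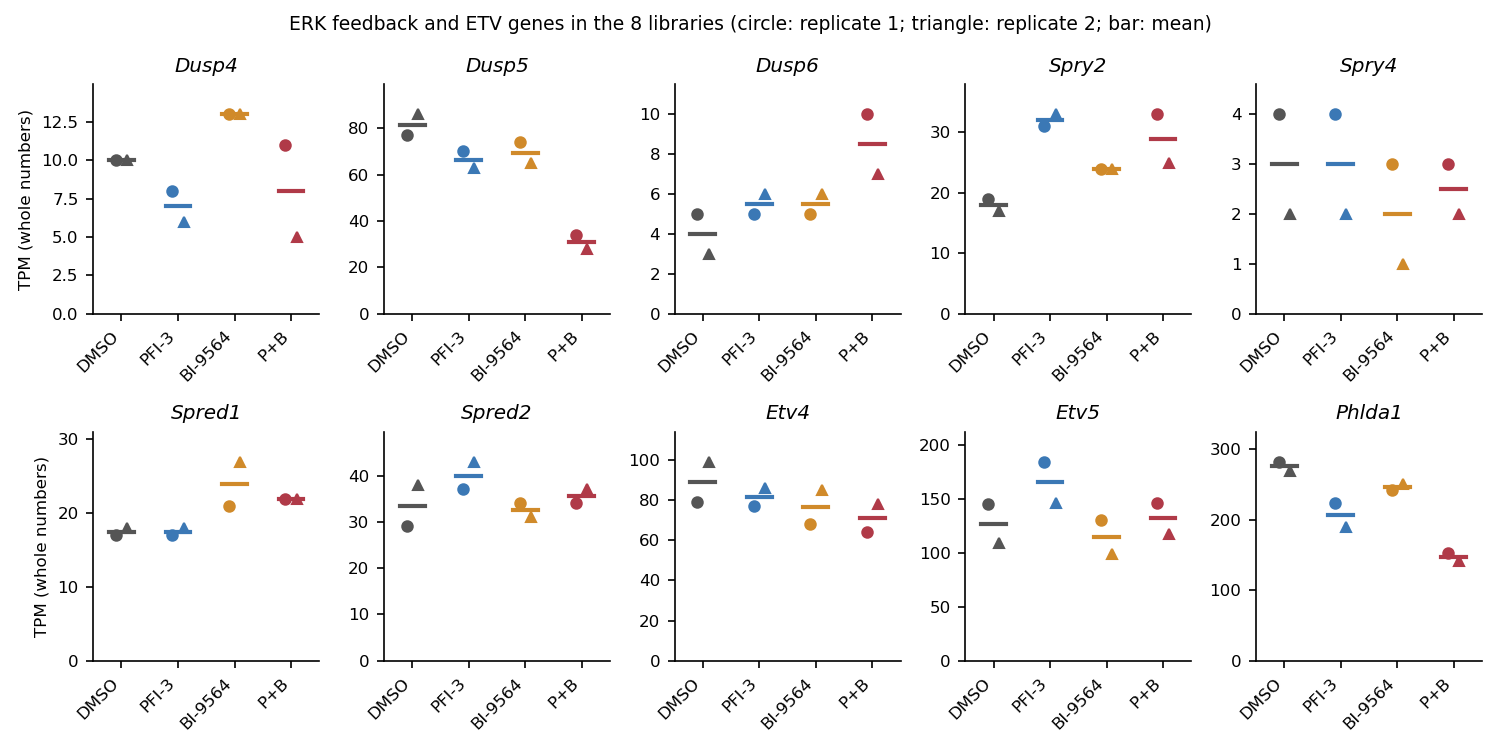
TPM of the 10 genes in each of the 8 libraries on linear axes that start at 0, with a circle for replicate 1, a triangle for replicate 2 and a bar at each group's mean. Dusp5 and Phlda1 have their lowest points in the 2 P+B libraries, at 28 to 34 and 141 to 152, and Spry4 stays between 1 and 4 everywhere.

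Dusp5 and Phlda1 fell when the compounds were combined. Dusp5, a nuclear phosphatase specific to ERK, was at 77 and 86 under DMSO and at 34 and 28 under P+B, a mean of 81.5 ± 6.36 against 31 ± 4.24 (SD, n = 2). Both P+B libraries were below both DMSO libraries and below all libraries of the single compounds. The log2 fold change was −1.37 (SE 0.14, 95% confidence interval −1.68 to −1.06), or 0.387 of the DMSO level, with a limma adjusted p of 0.00255. Phlda1 dropped from 282 and 269 to 152 and 141 under P+B, again with no overlap, and no other library was that low. Its log2 fold change was −0.91 (SE 0.10, 95% confidence interval −1.13 to −0.69; limma adjusted p = 0.00282), or 0.533 of the DMSO level. These were the 2 genes called of the 9 tested, both lower and 0 higher, beside 4.0% of all tested genes called in this comparison, 2.72% lower and 1.28% higher. Fitted with only the 4 libraries of this comparison, both lost the call (adjusted p = 0.101 for each), and 0 of all tested genes were called. In bulk RNA, a gene with fewer expressing cells and one with less RNA per cell cannot be told apart. In GENCODE M21 on GRCm38, Dusp5 (chr19:53529109-53542431, plus strand) overlaps an antisense gene, and Phlda1 (chr10:111506286-111508645, plus strand) overlaps a long non-coding RNA of the other strand, and the use of strand in the counting is not given in the sources used here.

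The median log2 fold change of the 9 tested genes with P+B was 0.06, equal to that of all 10222 genes. The 2 P+B libraries did not overlap the 2 DMSO libraries for 6 of the 9, with 3 genes higher and 3 lower, beside 47.5% of all tested genes. The plot of differences from DMSO shows the 2 falls apart from the other 7 genes, whose intervals reach to within the fold threshold.

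**Figure D2:**
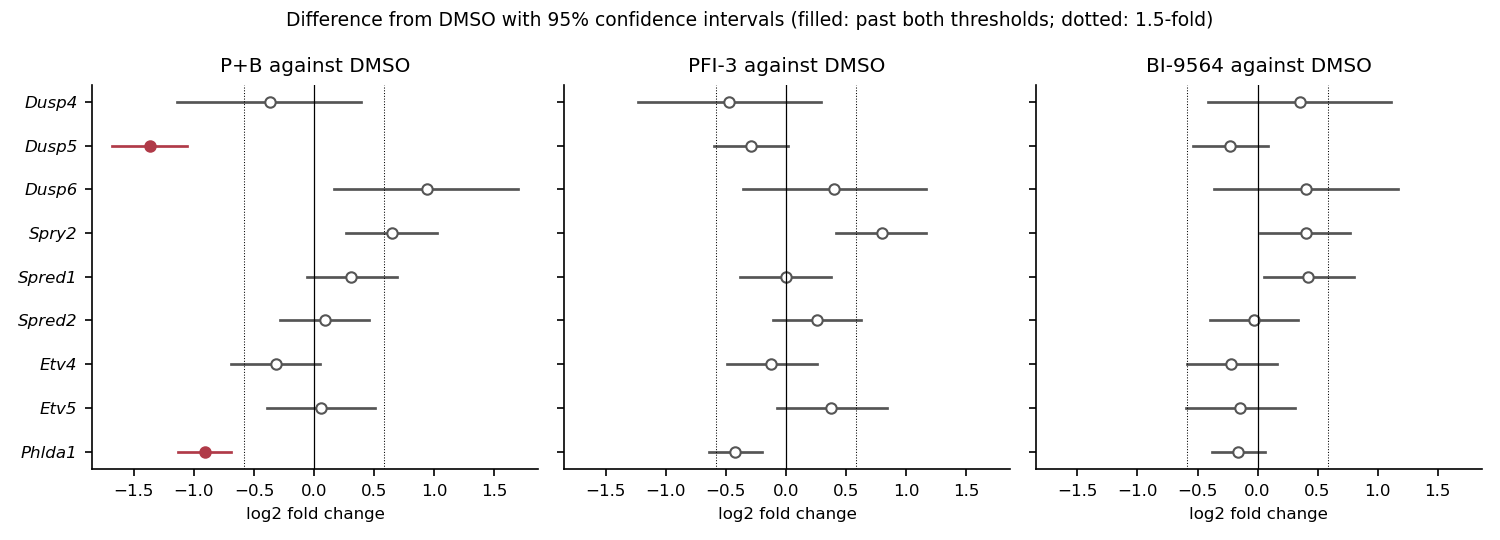
Log2 fold change of the 9 tested genes against DMSO for P+B, PFI-3 and BI-9564, with 95% confidence intervals as lines, filled points for genes past both thresholds and dotted lines at 1.5-fold. Dusp5 (−1.37) and Phlda1 (−0.91) with P+B are the filled points, and none is filled for either single compound.

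Dusp4 and Dusp6 were not called. Dusp6, the cytoplasmic ERK phosphatase that is the classic feedback gene of this pathway, was at 5 and 3 under DMSO and at 10 and 7 under P+B. Both P+B libraries were higher than both DMSO libraries, at levels of a few TPM. The log2 fold change of 0.94 (95% confidence interval 0.17 to 1.70) did not pass the test (limma adjusted p = 0.148). Dusp4, a nuclear phosphatase that acts on ERK and other MAP kinases, was at 10 and 10 under DMSO and at 11 and 5 under P+B. The P+B libraries lay on either side of the DMSO value (−0.37, 95% confidence interval −1.14 to 0.39, limma adjusted p = 0.554). Without the second P+B library the difference turned to 0.13.

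Of the inhibitors that act at RAS and RAF, Spry2 was higher in every library with a compound than in either DMSO library. Spry2, an ERK-induced Sprouty protein, lay at 19 and 17 under DMSO, 31 and 33 under PFI-3, 24 and 24 under BI-9564 and 33 and 25 under P+B. The 6 libraries with a compound were all above the 2 without, and those of PFI-3 and P+B overlapped. The comparisons with DMSO share the same 2 DMSO libraries. Of all tested genes, 16.5% (PFI-3), 22.9% (BI-9564) and 28.6% (P+B) were higher than DMSO without overlap. For P+B the log2 fold change was 0.65 (95% confidence interval 0.27 to 1.02), a 1.57-fold difference that missed the threshold (limma adjusted p = 0.0628). With the replicate number as a block it passed (adjusted p = 0.035), which made 3 of the 9 genes called, beside 7.02% of all genes in that fit.

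Spry4, a second Sprouty gene, was at 4 and 2 under DMSO, 4 and 2 under PFI-3, 3 and 1 under BI-9564 and 3 and 2 under P+B. It was low in all 8 libraries and its groups overlapped. With a filter of a mean of at least 1 it was tested, and P+B differed from DMSO by −0.16 (95% confidence interval −1.33 to 1.01, limma adjusted p = 0.887), an interval that holds a doubling as well as a halving. Spred1, which recruits neurofibromin to RAS, was at 17 and 18 under DMSO, 17 and 18 under PFI-3, 21 and 27 under BI-9564 and 22 and 22 under P+B. The BI-9564 and P+B libraries were above the DMSO libraries and the PFI-3 libraries matched them. The differences from DMSO, 0.42 for BI-9564 (adjusted p = 0.294) and 0.31 for P+B (adjusted p = 0.304), did not pass the limma test. Spred2, its paralogue, was at 29 and 38 under DMSO, 37 and 43 under PFI-3, 34 and 31 under BI-9564 and 34 and 37 under P+B. All 4 groups lay close together, and P+B differed from DMSO by 0.09 (95% confidence interval −0.28 to 0.46).

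Etv4 and Etv5, related ETS factors of the PEA3 family, were not called in any comparison. Etv5 was at 146 and 109 under DMSO, 185 and 147 under PFI-3, 131 and 99 under BI-9564 and 147 and 118 under P+B. The DMSO range overlapped those of BI-9564 and P+B, and the PFI-3 libraries were just above it. With P+B the difference was 0.06 (95% confidence interval −0.39 to 0.51, limma adjusted p = 0.886), and it became −0.03 when each library was centred on its median. Etv4 was at 79 and 99 under DMSO, 77 and 86 under PFI-3, 68 and 85 under BI-9564 and 64 and 78 under P+B. Its P+B libraries were below the DMSO libraries by a narrow gap, with a log2 fold change of −0.32 (95% confidence interval −0.69 to 0.05, limma adjusted p = 0.292). With the replicate block the standard errors were smaller (0.08 for Etv4 and 0.07 for Etv5), and the adjusted p of Etv4 for P+B against DMSO was 0.0511.

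Neither single compound gave a call. Against DMSO, 0 of the 9 genes passed with PFI-3, where limma called 0% of all tested genes, and 2 had an unadjusted p under 0.05, beside 6.79% of all genes. These were Spry2, higher by 0.80 (95% confidence interval 0.42 to 1.17, limma adjusted p = 0.493), and Phlda1, at 223 and 190 against 282 and 269 (−0.42, 95% confidence interval −0.64 to −0.20, limma adjusted p = 0.506). The Phlda1 values with PFI-3 were between those of DMSO and of P+B, without overlap. Dusp5 was at 70 and 63 under PFI-3, below both DMSO libraries, with a log2 fold change of −0.29 (limma adjusted p = 0.765). Of all tested genes, 12.8% were lower under PFI-3 than under DMSO without overlap. With BI-9564, 0 of the 9 genes passed beside 0.108% of all tested genes, and 2 had an unadjusted p under 0.05 beside 14.9% of all genes, namely Spry2 (0.40, adjusted p = 0.316) and Spred1. Dusp5 was at 74 and 65 under BI-9564 (−0.23, limma adjusted p = 0.474) and Phlda1 at 242 and 250 (−0.16, limma adjusted p = 0.470). Both genes were lower than in the DMSO libraries without overlap, by less than the fold threshold, beside 18.3% of all tested genes lower without overlap. The medians over the 9 genes were 0.00 for PFI-3 and −0.03 for BI-9564, against 0.02 for all genes in both comparisons.

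The combination was then compared with each compound alone. The labels do not give the dose of the compounds, and in other experiments of the study each was given at a lower dose in the combination than alone, so a difference here may include a difference in dose. Dusp5, at 34 and 28 under P+B, was 70 and 63 under PFI-3 and 74 and 65 under BI-9564. Against PFI-3 it had a log2 fold change of −1.08 (95% confidence interval −1.40 to −0.77, limma adjusted p = 0.0137) and against BI-9564 of −1.14 (95% confidence interval −1.46 to −0.83, limma adjusted p = 0.0361). Phlda1 was lower with P+B than with BI-9564, with −0.74 (95% confidence interval −0.97 to −0.52, limma adjusted p = 0.0361). Against PFI-3 it differed by −0.49 (95% confidence interval −0.71 to −0.27, limma adjusted p = 0.0579) and was under the fold threshold. Thus 1 of 9 genes was called against PFI-3, beside 1.31% of all tested genes, and 2 of 9 against BI-9564, beside 0.196%. These calls were lost in fits with a library left out, in which fewer of all tested genes were called as well. Such a fit leaves 1 library in a group. The call against PFI-3 was lost without any 1 of the 4 libraries compared (adjusted p = 0.127 and 0.12 without the first and the second PFI-3 library, 0.0534 and 0.116 without the first and the second P+B library). Those against BI-9564 were lost without any 1 of the 8 libraries, with adjusted p from 0.0814 to 0.301 for Dusp5 and from 0.113 to 0.376 for Phlda1, while the differences ranged from −1.28 to −1.01 and from −0.80 to −0.69.

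**Figure D3:**
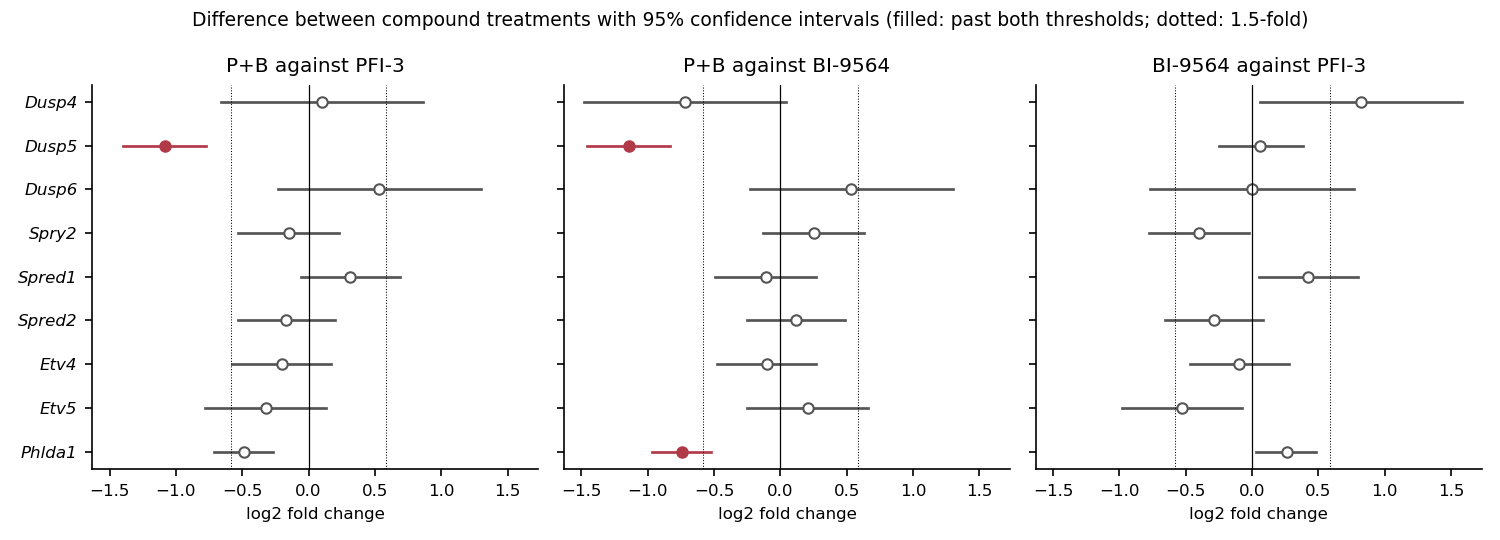
Log2 fold change of the 9 tested genes for P+B against PFI-3, P+B against BI-9564 and BI-9564 against PFI-3, with 95% confidence intervals as lines, filled points past both thresholds and dotted lines at 1.5-fold. Dusp5 is filled in both comparisons of P+B (−1.08 and −1.14) and Phlda1 against BI-9564 (−0.74), and no gene is filled between the single compounds.

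Between the single compounds, 0 of the 9 genes were called by limma, beside 0.108% of all tested genes, and 5 had an unadjusted p under 0.05, beside 14.2%. The largest of these differences was that of Dusp4, at 13 and 13 under BI-9564 and 8 and 6 under PFI-3 (0.82, 95% confidence interval 0.06 to 1.58, limma adjusted p = 0.333). Etv5 was lower with BI-9564 (−0.53, limma adjusted p = 0.296), as was Spry2 (−0.40, adjusted p = 0.338), whereas Spred1 (0.42, adjusted p = 0.317) and Phlda1 (0.26, adjusted p = 0.305) were higher. None of the 5 passed the adjusted threshold in this fit. With the replicate block Etv5 did (adjusted p = 0.0196, SE 0.07), as it did for P+B against PFI-3 (−0.32, adjusted p = 0.0415), and both differences were under the fold threshold. For BI-9564 against PFI-3, the other 4 genes differed by between −0.29 and 0.06. The plot of differences between treatments shows these intervals beside those of Dusp5 and Phlda1 for P+B.

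Other genes of the pathway were counted from lists made by function, also with earlier results of these data known. The counts therefore describe the lists and are not a test of them. The 19 other genes listed as inhibitors include DUSP phosphatases that are not specific to ERK. Of the 19, 16 were tested and 4 fell with P+B against DMSO, with 0 higher, beside 2.72% of all tested genes lower, and a median of −0.09 against 0.06 for all genes. They were Dusp1 (331 and 350 to 156 and 139, log2 fold change −1.20, limma adjusted p = 0.001), an immediate early phosphatase, Dusp14 (280 and 315 to 122 and 111, −1.34, adjusted p = 0.001), Dusp2 (10 and 11 to 3 and 4, −1.36, adjusted p = 0.0414) and Errfi1 (63 and 62 to 28 and 27, −1.16, adjusted p = 0.0125), which inhibits the EGF receptor. Dusp1 and Dusp14 also fell with P+B against PFI-3 (−0.80 and −0.82, limma adjusted p = 0.0111 for both) and against BI-9564 (−0.91 and −1.02, adjusted p = 0.0255 and 0.0181). The calls of Dusp1 and Dusp14 against DMSO held without any 1 of the 8 libraries (adjusted p = 0.00484 to 0.0233). Those against BI-9564 were lost without any 1 of the 8 (adjusted p = 0.0562 to 0.274), and those against PFI-3 were lost without either PFI-3 library or the second P+B library and, for Dusp14, also without the first P+B library (adjusted p up to 0.121). The call of Dusp2 was lost without any 1 library (0.0504 to 0.165) and that of Errfi1 without either DMSO or either P+B library (up to 0.109). The tested DUSP genes Dusp7, Dusp9, Dusp10 and Dusp16 were not called.

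Among 14 other genes known to respond to ERK, 10 were tested, 5 fell with P+B and 0 rose, beside 2.72% of all tested genes lower, and the median log2 fold change was −1.0 against 0.06 for all genes. Fosl1, a FOS family partner of JUN that the study also counts among JUN target genes, went from 47 and 67 to 12 and 9 (−2.33, limma adjusted p = 0.00296). Hbegf, an EGF receptor ligand, went from 45 and 32 to 8 and 6 (−2.30, adjusted p = 0.0031) and Ier3, an immediate early gene, from 20 and 22 to 5 and 5 (−1.87, adjusted p = 0.0161). Plaur, the urokinase receptor, was at 304 and 255 under DMSO and 107 and 92 under P+B (−1.48, adjusted p = 0.001), and Myc was at 40 and 32 and at 16 and 15 (−1.16, adjusted p = 0.00546). Ccnd1, the cyclin of early G1, missed the threshold (−0.84, adjusted p = 0.0539) and passed with the replicate block (adjusted p = 0.0157), beside 4.10% of all tested genes lower. Epha2 (−0.45, adjusted p = 0.0723) and Epha4 (−0.44, adjusted p = 0.28) were lower and not called. Ier2 (95 and 104 to 114 and 121, adjusted p = 0.294) and Mcl1 (306 and 296 to 318 and 331, adjusted p = 0.49) were higher without overlap and not called. Of all tested genes, 28.6% were higher without overlap. Egr1, Egr2, Fos and Areg stayed at 2 TPM or less in every library and were not tested. All 5 called genes had both P+B libraries below both DMSO libraries, beside 18.9% of all tested genes, and their calls rest on the same values. Fosl1 and Plaur kept the call without any 1 library, whereas Ier3 lost it without either DMSO or either P+B library (adjusted p up to 0.114), Myc without the first DMSO or the second P+B library (up to 0.0563) and Hbegf without the first DMSO library (0.0535). With only the 4 libraries of this comparison, the 5 lost the call, as Dusp1, Dusp2, Dusp14 and Errfi1 did (adjusted p = 0.101 to 0.143). In that fit 0 of all tested genes were called. Plaur also fell with P+B against PFI-3 (−1.13, limma adjusted p = 0.00724) and against BI-9564 (−0.99, adjusted p = 0.0305). Fosl1 fell against PFI-3 (−1.53, adjusted p = 0.0299). Of all tested genes, 1.05% were called lower against PFI-3 and 0.196% against BI-9564. These calls against the single compounds were lost in fits with a library left out. With the block 6 and 4 of the 10 were called lower, beside 2.40% and 0.724% of all tested genes. Against DMSO, BI-9564 alone gave a call for Hbegf with the replicate block, at 19 and 15 against 45 and 32 (−1.12, adjusted p = 0.0216, or 0.131 without the block). With the block 1.04% of all tested genes were called lower under BI-9564, beside 0.0783% without it.

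Of 31 genes of the core of the pathway (ligands, receptors, adaptors and kinases), 25 were tested, 1 fell and 0 rose with P+B, beside 4.0% of all tested genes called, with a median of 0.12. The gene that fell was Gab1, a docking adaptor of receptor tyrosine kinases, from 347 and 385 to 212 and 226 (−0.74, limma adjusted p = 0.0103), a call lost without either DMSO or either P+B library (adjusted p up to 0.0943). With the replicate block Fgfrl1 (1.23, adjusted p = 0.0354) and Rps6ka3, an ERK-activated kinase (0.70, adjusted p = 0.0319), were called higher, beside 2.93% of all tested genes. Fgf4, the main FGF ligand of ESCs, was at 44 and 33 under DMSO, 55 and 53 under PFI-3, 31 and 17 under BI-9564 and 33 and 19 under P+B, and was not called in any comparison without the block. With the block, Fgf4 was called lower against PFI-3 in the P+B (−1.08, adjusted p = 0.0232) and BI-9564 (−1.20, adjusted p = 0.0292) libraries. So were 2.40% and 0.978% of all tested genes. Of 15 other ETS factors, 10 were tested and 1 fell with P+B, beside 2.72% of all tested genes lower, with a median of −0.04. It was Ets2, from 35 and 35 to 21 and 22 (−0.68, limma adjusted p = 0.0298), and the call was lost without either library of DMSO, PFI-3 or P+B (adjusted p up to 0.126). The paralogues of Phlda1 were not called without the block. Phlda3 was at 115 and 105 under DMSO and 141 and 151 under P+B (0.41, adjusted p = 0.152), and Phlda2 was at 4 and 7 and at 8 and 4. With the block Phlda3 was called higher in P+B against PFI-3 (0.61, adjusted p = 0.0443), beside 1.04% of all tested genes. Against DMSO no gene of these lists was called with PFI-3 or with BI-9564 in the fit without the block, and Hbegf under BI-9564 was the 1 gene called with it. With the block 0% of all tested genes were called under PFI-3 and 1.53% under BI-9564.

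**Figure D4:**
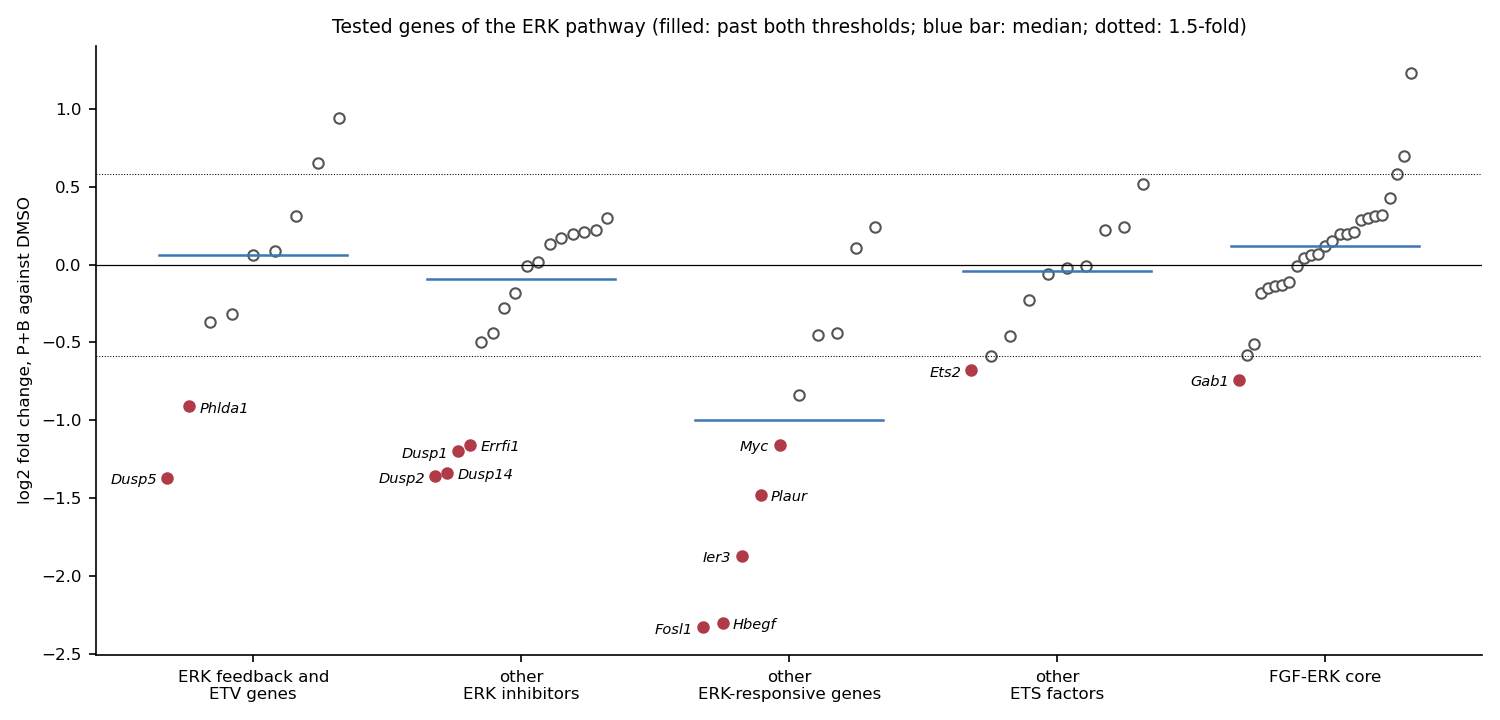
Log2 fold change with P+B against DMSO for each tested gene of the 5 lists of the ERK pathway, ordered within a list, with filled and named points past both thresholds, a bar at each list's median and dotted lines at 1.5-fold. The list medians run from −1.0 in the other ERK-responsive genes to 0.12 in the core of the pathway, and all filled points are below 0.

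Within each group, some of the 10 genes also differed between the libraries numbered 1 and 2 in the same way. Etv5 was lower in library 2 of all 4 groups, by log2 differences of −0.42 (DMSO), −0.33 (PFI-3), −0.40 (BI-9564) and −0.31 (P+B). Etv4 was higher in library 2 of all 4 groups, by 0.32, 0.16, 0.32 and 0.28. The paralogues therefore moved in opposite directions between the replicate numbers, by amounts similar to their differences between treatments. Spry4 was lower in library 2 of all 4 groups, at 1 or 2 TPM against 3 or 4. Dusp5 and Phlda1 had no common direction. Among all tested genes, 11.1% were higher and 12.8% lower in library 2 of all 4 groups. Jun was higher in library 2 throughout, by 0.46 to 0.55, and the naive pluripotency gene Nanog was lower throughout, by a difference of −1.0 to −0.55. What sets the replicate numbers apart is not given in the labels, and these differences are a description without a test.

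**Figure D5:**
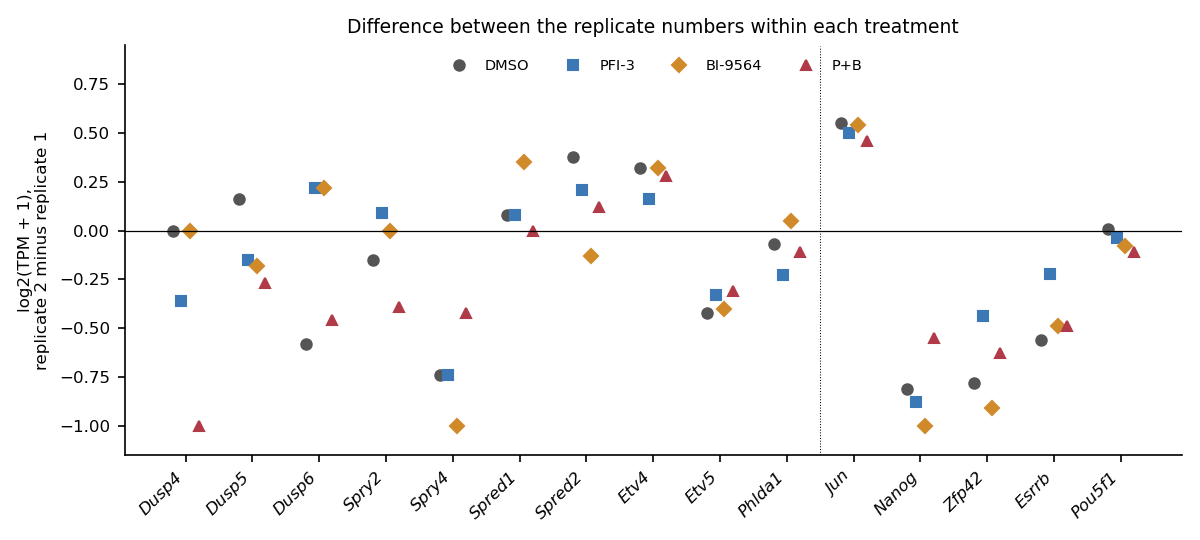
Difference in log2(TPM + 1) between library 2 and library 1 of each treatment for the 10 genes and, right of the dotted line, for Jun and 4 pluripotency genes, with 1 point per treatment. The 4 points of Etv5 (−0.42 to −0.31) and of Etv4 (0.16 to 0.32) lie on opposite sides of 0, and those of Dusp5 lie on both sides.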

How the data were processed

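The mRNA libraries of 8 samples were sequenced on a NextSeq500. The submitters' processing notes name bcl2fastq, Bowtie2 2.2.5, RSEM 1.3.0 and mm10, and the annotation, the use of strand and the handling of multiply mapped reads are not given in the sources used here. Each deposited value is a score for 1 gene in 1 library, which the authors obtained by turning TPM into whole numbers. Depth and counting error are therefore unknown, and count models were not used.

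Samples were grouped by their labels. A limma model (3.58.1, R 4.3.3, moderated with a mean trend) was fitted to log2(value + 1) of 8 libraries at once, with 4 residual degrees of freedom. Testing was limited to genes whose mean reached 5, and p-values were adjusted by Benjamini-Hochberg over all of them within each of the 6 comparisons. Of the 50600 names, 94 were repeated, 27 were dates and 47718 (94.3%) were found in GENCODE M21. The procedure was run on simulated data with independent libraries and no difference between replicate numbers, so that run says nothing about the pairing.

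The members and lists were chosen with earlier results of these data known. All members are named and, of other lists, every gene called in any comparison and otherwise at most 3 of the highest mean. Exceptions include Dusp7, Dusp9, Dusp10 and Dusp16, named as DUSP genes, and Fgf4, Fgfrl1 and Rps6ka3, called with the replicate block. The list of other ERK-responsive genes is named in full. Same-numbered libraries deviated together (Pearson's r across genes 0.143 to 0.236 over the 6 pairs of groups), so the replicate numbers were taken to pair the samples, and a fit with the replicate block was run beside the main one. The other alternatives were pseudocounts of 0.5 and 5, means of at least 1 and 20 and no filter, quantile normalization, median centring, dropping the trend or the fold threshold, an adjusted p threshold of 0.01, fitting the 4 compared libraries alone, and omitting every library once.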

Additional observations from a re-analysis of the deposited data

How the results depend on the processing

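The calls of Dusp5 and Phlda1 for P+B against DMSO held under every alternative listed in the methods except fitting the 4 compared libraries alone, which called 0 of the 9 genes in place of 2, and without any 1 library the count was 2. For P+B against PFI-3 the count of 1 became 0 without a filter, without the trend, with only the 4 libraries compared and at an adjusted p threshold of 0.01, and was 0 to 1 with libraries left out. For P+B against BI-9564 the count of 2 became 0 under the same settings and with a mean of at least 1, and was 0 with any library left out. Fewer of all tested genes were called under these settings too. With only the 4 libraries compared the number was 0 in each of these comparisons, against 409, 134 and 20 in the main fit. For P+B against PFI-3 it was 6 without a filter, 4 without the trend and 9 at the adjusted p threshold of 0.01. For P+B against BI-9564 these were 0, 2 and 1, and 2 with a mean of at least 1. With the replicate block the count for P+B against DMSO was 3, with Spry2 added, and the pairing changed no other call among the 9 genes.

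Signs turned among genes that were not called. Median centring gave −0.03 for Etv5 with P+B against DMSO. Omitting 1 library at a time, the log2 fold change against DMSO ranged from −0.87 to 0.13 for Dusp4, −0.10 to 0.28 for Spred2 and −0.15 to 0.27 for Etv5 with P+B, from −0.22 to 0.16 for Spred2 and −0.36 to 0.06 for Etv5 with BI-9564, and from −0.28 to 0.04 for Etv4 with PFI-3. Between compounds it ranged from −0.40 to 0.60 for Dusp4 and −0.34 to 0.04 for Spry2 (P+B against PFI-3), −0.28 to 0.06 for Spred1 and −0.26 to 0.05 for Etv4 (P+B against BI-9564), and −0.03 to 0.15 for Dusp5 and −0.26 to 0.06 for Etv4 (BI-9564 against PFI-3). Over all genes, the split of calls for P+B against DMSO was 131 higher and 278 lower, and became 81 and 305 with quantile normalization and 86 and 401 with median centring. Whole-number TPM limits the genes at a few TPM, Dusp6 and Spry4 above all, and with 2 libraries per group the spread is poorly known. The cause of the lost calls was not tested.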
